A study of Mus musculus with 2 samples.

Results

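The genes that carry out phototransduction and build the photoreceptor outer segment were examined in open chromatin of the embryonic mouse retina. The set held 35 protein-coding genes, taken by name from the 21938 protein-coding genes of the GENCODE annotation, by a rule that names the genes and uses no threshold on the peaks. By where their proteins act in mouse photoreceptors, 10 genes were classed as rod, 9 as cone and 16 as shared by both cell types. Gnb1 was placed with the rod genes because its protein is the transducin β subunit of rods, although it is also made in many other cells.

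Rods and cones detect light in a stack of membranes at one end of the cell, the outer segment. A photon activates an opsin, which activates transducin, a G protein of α, β and γ subunits, and transducin in turn switches on the phosphodiesterase PDE6. PDE6 breaks down cyclic GMP, so that cyclic nucleotide-gated channels close. Kinases, arrestins, guanylate cyclases and their calcium-sensing activators then end the response and restore cyclic GMP. Rods and cones use separate genes for many of these proteins, and the transcription factors OTX2 and CRX, whose preferred DNA sequence contains TAATCC, are known regulators of photoreceptor genes. In the embryonic mouse retina photoreceptor precursors are still being born and outer segments have not formed.

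The data are DNase-seq, in which the enzyme DNase I cuts DNA where it is not covered by nucleosomes, so that clusters of cuts mark open chromatin. There was 1 group of 2 libraries, labelled biological replicates 1 and 2, made from whole retina tissue of B6NCrl mouse embryos of day 14.5, with males and females pooled, and described as healthy. The labels gave no treatment and no genetic change, and both libraries carried the same donor label, so that they may be separate pools of the same stock of animals. With a single group there was no contrast to test, and each value is given for both libraries, whose difference is the only measure of error. The tissue is a mixture of cell types, and a site open in few cells cannot be told apart from a site weakly open in many.

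The deposited lists held 165269 distinct peaks in replicate 1 and 219308 in replicate 2, each 150 bp wide. Each peak carries a whole-number score of the authors, between 1 and 150, and the median score was 29 in the first library and 48 in the second. Scores were therefore turned into ranks within each library, as percentiles in which 100 is the strongest peak. The number of reads behind a peak is not known. Retinal progenitor and ganglion cell markers had a promoter peak in both libraries for 8 of 8 genes, against 68.8% of all protein-coding genes. Pigment epithelium markers had one for 5 of 7 (71.4%), which is near that share, but these 5 were all at or above the median score in both libraries. Their median ranks were 93.4 and 93.7. Of the 6 markers with promoters poor in the dinucleotide CpG, a class described below, 4 had one (66.7%), against 28.8% of all genes of that class. Pmel ranked highest of these 5, at 96.1 and 98.0, and the markers outside the 5 had no promoter peak in either library. The counts in both libraries were 2 of 5 for blood markers, 2 of 5 for endothelium, 0 of 5 for microglia and 1 of 5 for lens. The part of pigment epithelium cells in the values below was not tested.

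Among the peaks of these genes, 8 sequences illustrate what the values below turn on. The first 6 are promoter peaks, here peaks within 1 kb of an annotated transcription start site (TSS), found in both libraries and holding TAATCC or its reverse complement GGATTA. The other 2 are distal peaks, which lie outside every promoter window. Each is the whole 150 bp peak of replicate 1, read from the RefSeq GRCm38.p6 (mm10) assembly 5′ to 3′ on the strand of the gene, and the capitals mark matches to the searched motifs. Grk1, Guca1a and Prph2 were added to the printed sequences after their values were seen.
Gnat1 intron, chr9:107677776-107677925, minus strand: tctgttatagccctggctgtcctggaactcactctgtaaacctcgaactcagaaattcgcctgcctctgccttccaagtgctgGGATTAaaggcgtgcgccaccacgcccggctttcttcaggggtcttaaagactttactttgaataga
Pde6g intron, chr11:120452316-120452465, minus strand: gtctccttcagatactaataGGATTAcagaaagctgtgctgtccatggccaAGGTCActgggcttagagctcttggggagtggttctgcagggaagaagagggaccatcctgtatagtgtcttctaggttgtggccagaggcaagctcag
Cnga1 exon of a noncoding transcript, chr5:72643736-72643885, minus strand: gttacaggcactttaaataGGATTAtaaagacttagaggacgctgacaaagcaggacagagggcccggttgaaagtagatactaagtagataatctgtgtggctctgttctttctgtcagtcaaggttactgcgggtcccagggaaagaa
Gnb3 upstream, chr6:124840456-124840605, minus strand: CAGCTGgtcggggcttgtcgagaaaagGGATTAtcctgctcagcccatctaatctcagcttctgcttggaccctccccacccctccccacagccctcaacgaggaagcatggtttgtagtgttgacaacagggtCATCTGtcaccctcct
Grk1 upstream, chr8:13404796-13404945, plus strand: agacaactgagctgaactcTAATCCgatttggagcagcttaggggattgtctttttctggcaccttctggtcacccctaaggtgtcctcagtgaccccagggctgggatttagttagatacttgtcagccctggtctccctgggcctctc
Guca1a upstream, chr17:47400656-47400805, minus strand: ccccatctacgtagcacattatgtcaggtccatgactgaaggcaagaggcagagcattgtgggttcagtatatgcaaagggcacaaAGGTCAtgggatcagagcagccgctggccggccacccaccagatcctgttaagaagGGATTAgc
Cngb1 distal, intron, chr8:95254956-95255105, minus strand: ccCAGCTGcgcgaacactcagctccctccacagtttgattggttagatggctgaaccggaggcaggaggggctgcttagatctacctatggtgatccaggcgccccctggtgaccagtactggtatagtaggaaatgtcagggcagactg
Prph2 distal, intergenic, chr17:46903996-46904145, plus strand: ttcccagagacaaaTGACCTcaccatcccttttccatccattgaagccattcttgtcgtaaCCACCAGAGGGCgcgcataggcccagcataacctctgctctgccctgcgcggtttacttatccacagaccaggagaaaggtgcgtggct
In the Gnat1 and Gnb3 sequences the match lies outside the overlapping but shifted peak of replicate 2. In the Gnat1 sequence it lies in a stretch that the assembly masks as a repeat, which covers 80.0% of that peak. The Pde6g and Guca1a sequences also hold AGGTCA, a site of nuclear receptors, and the Gnb3 sequence also holds the E-boxes CAGCTG and CAGATG (as CATCTG). The Cngb1 distal sequence holds CAGCTG, and the Prph2 distal sequence holds AGGTCA (as TGACCT) and, as the longer capitals, a match to the CTCF core.

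A promoter peak was present for 24 of the 35 genes in replicate 1, against 69.7% of all protein-coding genes, and for 28 in replicate 2, against 71.3%. In both libraries it was present for 24 genes, or 68.6%, against a background of 68.8%. With these windows the share was thus near that of the genome, but it was lower with narrower definitions of a promoter. It was 57.1% against 67.3% with windows of 500 bp, 57.1% against 67.5% with protein-coding transcripts alone, and 54.3% against 64.3% with the 5′ end of the gene alone. Requiring that the peaks of the 2 libraries overlap left 22 genes (62.9%), against 68.3% of all genes. A hotspot, a longer region called by the authors at a false discovery rate, met the promoter window in both libraries for 23 genes, against 69.1% of all genes. The strength of the peaks differed more from the background than their presence. A promoter peak at or above the median score of its library was found in both libraries for 14 genes, or 40.0%, against 66.0% of all genes. The strongest promoter peak of a gene had a median rank of 64.4 in replicate 1 and 70.1 in replicate 2 over the members that had one, where the medians over all genes with a peak were 95.0 and 95.9.

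**Figure D1:**
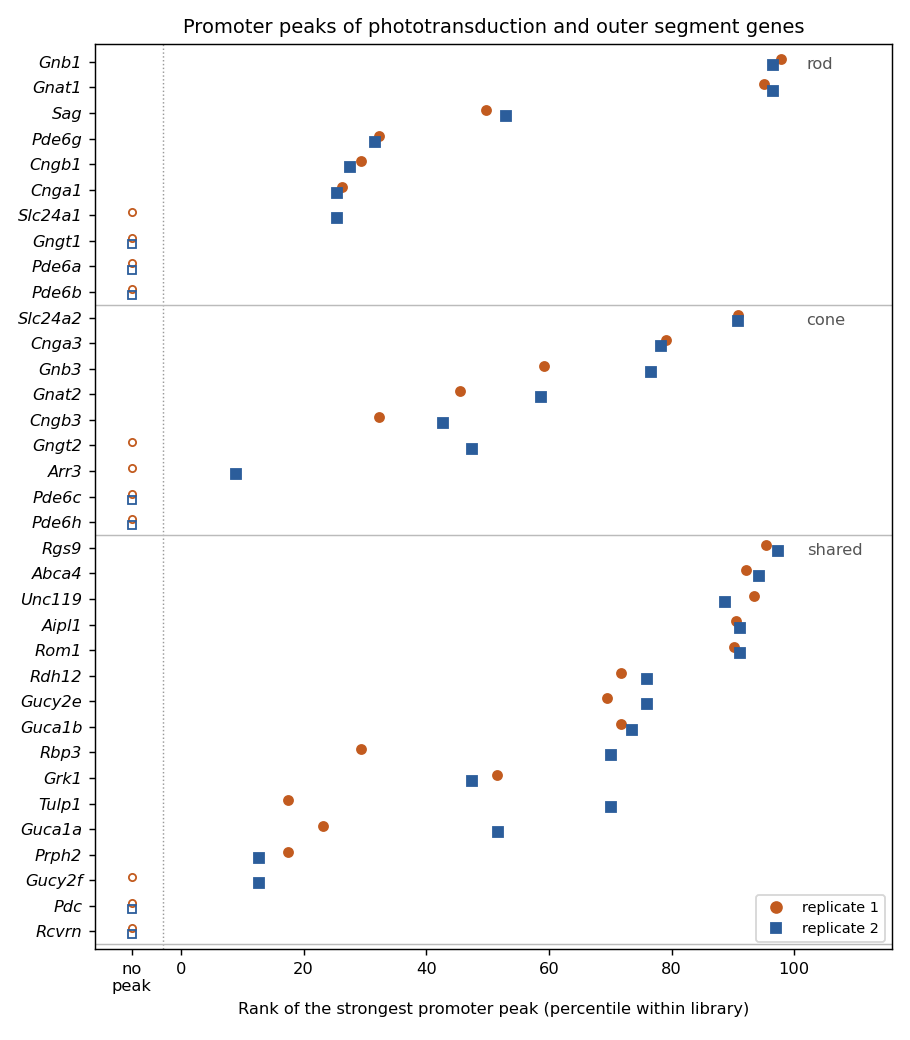
Percentile rank, within each library, of the strongest promoter peak of each gene (horizontal axis, no unit), for rod, cone and shared genes ordered by their mean. Filled symbols are measured ranks, and open symbols at the left mark genes with no promoter peak in that library. 7 genes had none in either library, and Slc24a1, Gngt2, Arr3 and Gucy2f had one in replicate 2 alone.

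Most of these genes have promoters poor in the dinucleotide CpG. Their median ratio of observed to expected CpG, in 500 bp either side of the 5′ end, was 0.306 against 0.552 over all genes, and 27 of the 35 were under 0.4. Of those 27 genes, 17 (63.0%) had a promoter peak in both libraries, against 2526 of 8785 (28.8%) among all genes of that class. At or above the median score the count was 7 of 27 (25.9%), close to the 23.7% of all genes in the class. The median ranks of the low-CpG members with a peak were 45.5 and 51.7, where all low-CpG genes with a peak had 80.1 and 82.1. Low-CpG members therefore had a promoter peak more often than other genes of their class in these lists, and the peaks they had were weaker. The members had a median of 3 annotated TSSs per gene, where all genes also had 3 and all low-CpG genes had 2, and a gene with more TSSs has more windows to be counted in. Of the 8 remaining members, 3 of 4 in the middle class and 4 of 4 in the high class had a promoter peak in both libraries, where all genes of those classes had 86.7% and 98.2%. The 4 high-CpG members were Gnb1, Slc24a2, Rgs9 and Unc119, and all 4 ranked at 88.7 or higher in both libraries.

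**Figure D2:**
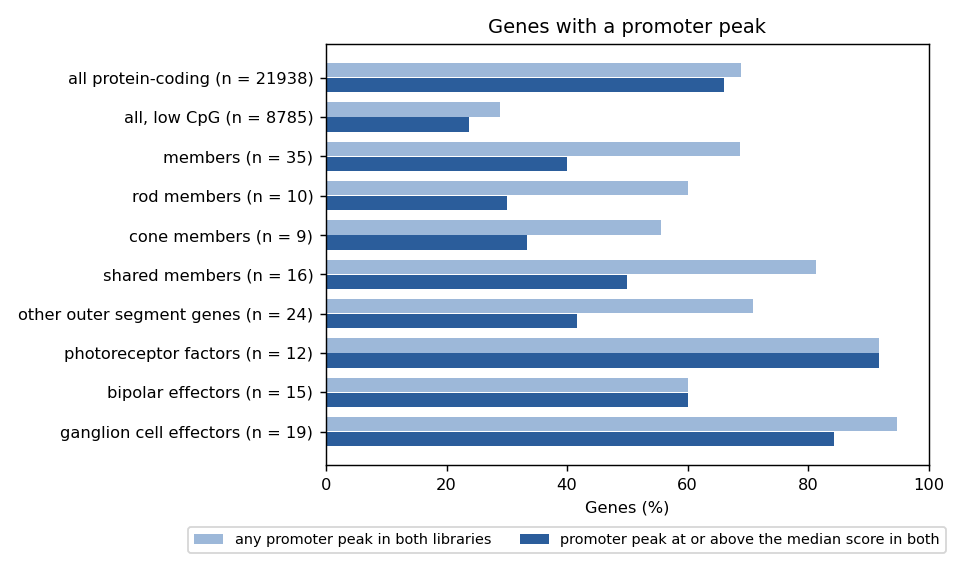
Share of genes (percent, horizontal axis) with any promoter peak in both libraries (light bars) and with one at or above the median score in both (dark bars), for all protein-coding genes, the members and their classes, and 4 other gene lists. The members sit at 68.6% and 40.0%, and photoreceptor transcription factors at 91.7% for both bars.

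Among the transducin subunits, 4 of 6 genes had a promoter peak in both libraries. Gnb1 had the strongest, with scores of 122 and 128 (ranks 97.9 and 96.6) at its 5′ end on chromosome 4, centred 10 bp before it in replicate 1 and 30 bp before it in replicate 2. Gnat1, the rod α subunit on chromosome 9, had scores of 107 and 128 (ranks 95.0 and 96.6) in a peak at the same coordinates in both libraries, chr9:107676076-107676225. That peak overlaps a coding exon 3561 bp downstream of the 5′ end of the gene, 290 bp from an internal TSS. Gnat1 had 6 promoter peaks in each library, and with the 5′ end of the gene as its sole TSS, or with protein-coding transcripts alone, it had none in either library. Gnat2, the cone α subunit on chromosome 3, ranked at 45.5 and 58.8, also in an intron, 1502 and 1542 bp downstream of the 5′ end. A peak at the 5′ end of Gnat2 itself was listed in replicate 2 alone. Gnb3, the cone β subunit on chromosome 6, ranked at 59.3 and 76.6 in the upstream peak printed above, centred 256 and 216 bp before the 5′ end. Gngt2, the cone γ subunit, had promoter peaks in replicate 2 alone, the strongest at rank 47.5 and inside the promoter window of the neighbouring gene Abi3 as well. Gngt1, the rod γ subunit, had neither a promoter peak nor a distal peak in either library.

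Of the 5 PDE6 subunits, Pde6g alone had a promoter peak in both libraries. Pde6g encodes the inhibitory γ subunit of rods, and its peak ranked low, at 32.3 and 31.7 (scores of 22 and 37). The peak sits in an intron, 1109 and 1049 bp from the 5′ end and near the edge of the window of an internal TSS, and it was outside the window when that was narrowed to 500 bp. Pde6a and Pde6b, which form the catalytic core in rods, Pde6c, the catalytic subunit of cones, and Pde6h, the cone inhibitory subunit, had no promoter peak in either library. Widening the window to 2 kb brought in Pde6c in both libraries, by a peak 1430 bp downstream of its 5′ end in replicate 1, and Pde6b in replicate 2. Distal peaks were nearest to Pde6a in 8 and 12 cases, to Pde6b in 1 and 5, to Pde6c in 2 and 3 and to Pde6h in 4 and 5.

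The cyclic nucleotide-gated channel subunits and the exchangers that remove calcium had a promoter peak in both libraries for 5 of 6 genes. Slc24a2, the cone exchanger, which is also made in the brain, was strongest, with scores of 88 and 107 (ranks 90.8 in both) at its 5′ end on chromosome 4. Cnga3, the cone channel α subunit on chromosome 1, ranked at 79.1 and 78.3 in an intronic peak 4157 and 4137 bp downstream of the 5′ end, 212 and 192 bp from an internal TSS. A weaker Cnga3 peak, at ranks of 35.2 and 55.4, was centred 123 bp before the 5′ end in both libraries. Cngb3, the cone β subunit, ranked at 32.3 and 42.8 at its 5′ end. The rod subunits were low, with Cnga1 at 26.2 and 25.4 and Cngb1 at 29.3 and 27.6. The Cnga1 peak also lies in the promoter window of 4933408A14Rik. The 2 Cngb1 peaks were different sites, 5054 bp and 24914 bp downstream of the 5′ end, so that no Cngb1 promoter peak was shared. Slc24a1, the rod exchanger, had promoter peaks in replicate 2 alone, the stronger at rank 25.4 and 24 bp before its 5′ end.

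Shut-off and feedback genes had a promoter peak in both libraries for 6 of 10. Rgs9, which speeds the return of transducin to its inactive state, ranked at 95.4 and 97.3 (scores of 109 and 131), in a peak centred 62 bp before its 5′ end on chromosome 11 in both libraries. The calcium sensor Guca1b ranked at 71.7 and 73.5 and the guanylate cyclase Gucy2e at 69.5 and 76.0, both at the 5′ end. Grk1, the kinase that phosphorylates active opsin, ranked at 51.6 and 47.5. Sag, the rod arrestin on chromosome 1, ranked at 49.7 and 53.0 (scores of 29 and 50) in a peak centred 131 and 111 bp after the 5′ end. Guca1a, a partner of the cyclases, ranked at 23.2 and 51.7, further apart between the libraries than most. Arr3, the cone arrestin, was listed in replicate 2 alone at rank 9.06, and Gucy2f, the second cyclase, in replicate 2 alone at rank 12.7. Rcvrn, the calcium sensor that restrains Grk1, and Pdc, which binds transducin βγ, had no promoter peak. Rcvrn had no distal peak either, and Pdc had 1 in replicate 1 and 4 in replicate 2.

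Genes of outer segment structure and the retinoid cycle had a promoter peak in both libraries for 5 of 5. Abca4, the retinoid transporter of the disc rim, ranked at 92.1 and 94.2, in a peak at the same coordinates in both libraries, chr3:122122156-122122305. That peak lies in an intron 77788 bp inside the gene and 477 bp from one of its 10 annotated TSSs. At the 5′ end of Abca4, peaks centred 92 bp before it in replicate 1 and 12 bp before it in replicate 2 ranked at 62.9 and 77.7. Rom1, a disc rim protein, ranked at 90.2 and 91.1, in a window shared with Eml3, so that the peak cannot be assigned to either gene. Rdh12, a retinal reductase, ranked at 71.7 and 76.0. Rbp3, which carries retinoids between cells, ranked at 29.3 and 70.1. Prph2, the partner of Rom1, ranked at 17.4 and 12.7, the latter the lowest rank in replicate 2 among members with a peak in both libraries.

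The 3 genes of protein transport and folding had a promoter peak in both libraries. Aipl1, the chaperone needed for PDE6, ranked at 90.5 and 91.1 (scores of 87 and 108) in a peak at the same place in both, chr11:72038116-72038265, centred 682 bp upstream of the 5′ end. That peak holds a match to the CTCF core and no TAATCC. With windows of 500 bp, Aipl1 had a promoter peak in 1 library alone. Unc119, which carries lipid-modified transducin, ranked at 93.5 and 88.7 at its 5′ end. Tulp1, a trafficking protein, ranked at 17.4 in replicate 1 and 70.1 in replicate 2, but those were different sites, and no Tulp1 promoter peak was shared.

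**Figure D3:**
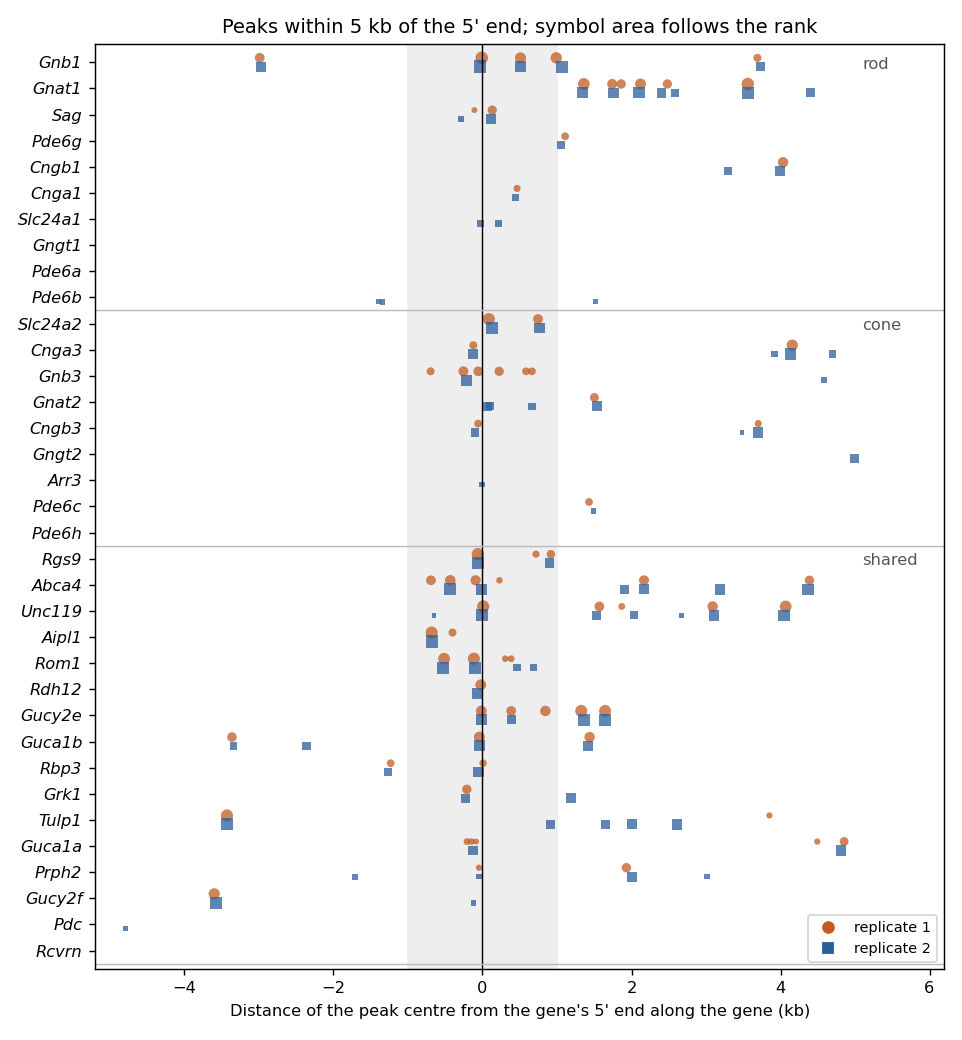
Positions of all peaks within 5 kb of the 5′ end of each gene, measured along the gene in kb (negative values are upstream), with symbol area following the percentile rank and the shaded band marking 1 kb either side. Rows keep the order of the plot of promoter ranks. Gnat1 peaks lie downstream of the band, whereas those of Gnb1, Rgs9 and Unc119 reach the 5′ end.

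Rod members had a promoter peak in both libraries for 6 of 10 (60.0%), cone members for 5 of 9 (55.6%) and shared members for 13 of 16 (81.2%). Over all protein-coding genes it was 68.8%. Among low-CpG members alone the counts were 5 of 9 rod, 4 of 8 cone and 8 of 10 shared, against 28.8% of all low-CpG genes. Over all members of a class with a peak, the median ranks were 41.0 and 31.7 for rod, 59.3 and 58.8 for cone, and 71.7 and 74.8 for shared members. Leaving out Gnb1, rod members had 5 of 9, with medians of 32.3 and 29.7. The counts of rod members depended on which TSSs were used: with the 5′ end of the gene alone, or with protein-coding transcripts alone, 3 of 10 rod members had a promoter peak in both libraries. Under those 2 settings cone members had 4 and 5 of 9, and shared members had 12 of 16 in each. Over all genes the shares were then 64.3% and 67.5%. Across 10 pairs of rod and cone counterparts, the rod gene had the higher promoter rank in both libraries in 4 pairs (Gnat1 over Gnat2, Gnb1 over Gnb3, Pde6g over Pde6h and Sag over Arr3). The cone gene was higher in both in 3 pairs (Cnga3 over Cnga1, Cngb3 over Cngb1 and Slc24a2 over Slc24a1). In 2 pairs, Pde6a and Pde6b against Pde6c, neither had a peak, and Gngt2 against Gngt1 differed in replicate 2 alone. Some of these orders depended on the setting. With protein-coding transcripts alone, Gnat1 had a promoter peak in neither library and Gnat2 in both. With windows of 500 bp, neither Pde6g nor Pde6h had a promoter peak in any library. No order of rod against cone genes held across the pairs.

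The promoter peaks repeated between libraries about as often as those of other genes. In replicate 1, 75.9% of the 58 member promoter peaks overlapped a peak of replicate 2, against 78.3% over all promoter peaks, and in replicate 2 it was 61.8% of 68, against 66.4%. By class the shares in replicates 1 and 2 were 85.7% and 70.6% for rod, 58.3% and 43.8% for cone, and 78.1% and 65.7% for shared members. The cone share rests on 12 and 16 peaks, of which 7 were in both.

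At the coordinates of replicate 1, TAATCC on either strand was present in 14 of the 44 promoter peaks of members found in both libraries (31.8%), against 1132 of 35648 promoter peaks of all genes (3.18%). At the coordinates of replicate 2 it was in 12 of 42 (28.6%), against 1124 of 35132 (3.20%). Among promoter peaks of low-CpG genes alone it was 183 of 4823 (3.79%). The counts at replicate 1 coordinates were 4 of 12 for rod, 1 of 7 for cone and 9 of 25 for shared members, and at replicate 2 coordinates 3 of 12, 0 of 7 and 9 of 23. Counted per gene at replicate 1 coordinates, 11 of the 22 members with a shared promoter peak held it, against 898 of 14981 genes (5.99%). The genes were Gnat1, Pde6g, Cnga1 and Sag among rod, Gnb3 among cone, and Grk1, Guca1a, Gucy2e, Rgs9, Abca4 and Unc119 among shared members. Of these, 9 held it at the coordinates of both libraries, while Gnat1 and Gnb3 held it in the peak of replicate 1 alone, and Rbp3 held it in the peak of replicate 2 alone. The 13 distinct matches were scattered, with 4 within 200 bp of a TSS of the gene (Sag, Guca1a, Gucy2e and Abca4). 3 were in separate Abca4 peaks, and 2 overlapping Guca1a peaks shared 1. Leaving out matches in masked repeats removed Gnat1 alone among these genes, and 13 of 44 member peaks (29.5%) against 992 of 35648 (2.78%) remained. Taking all promoter peaks of a library rather than shared ones gave 27.6% of member peaks against 3.53% of all in replicate 1, and 20.6% against 3.88% in replicate 2.

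**Figure D4:**
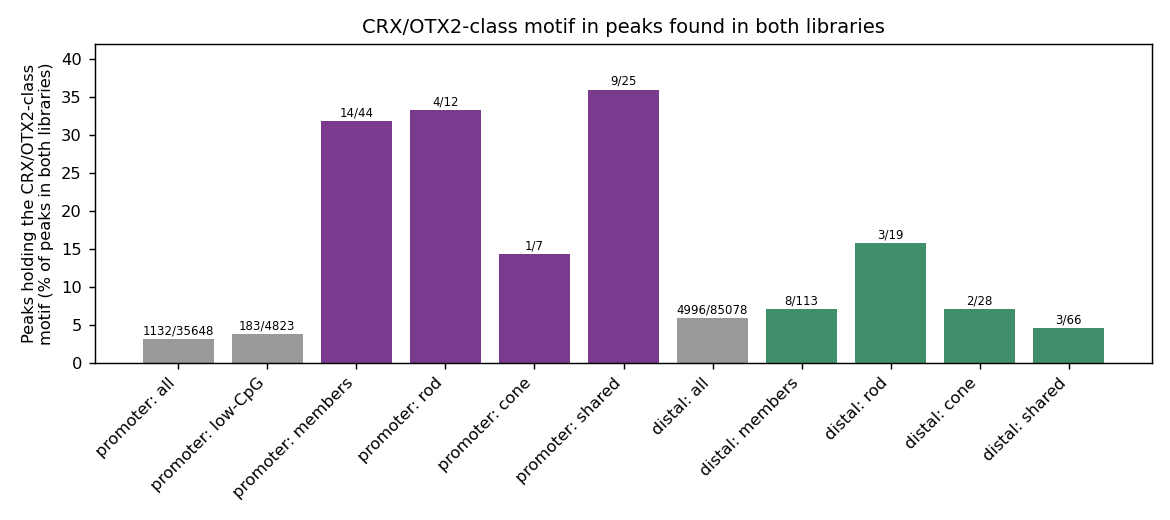
Share of peaks found in both libraries that hold the CRX and OTX2 class motif TAATCC on either strand at the coordinates of replicate 1 (percent, vertical axis, from 0), for promoter peaks (left) and distal peaks (right), with the number of peaks with a match over all peaks above each bar. Member promoter peaks reach 31.8% against 3.18% of all promoter peaks, while member distal peaks are at 7.08% against 5.87%.

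The other motifs were closer to their backgrounds in member promoter peaks. CAGCTG was in 18.2% against 11.2%, CAGATG in 13.6% against 8.60%, the NRL class site TGCTGA in 18.2% against 9.45%, AGGTCA in 11.4% against 6.97% and the CTCF core in 13.6% against 10.9%. In RefSeq promoter windows, of 300 bases around a gene start whether or not a peak was there, 26 members were matched and 12 held TAATCC (46.2%), against 1256 of 16522 genes (7.60%) and 9.83% of low-CpG genes. Those 12 were Cnga1, Cngb1, Gngt1, Sag, Gnat2, Abca4, Aipl1, Guca1a, Gucy2e, Gucy2f, Rbp3 and Unc119. The motif was thus also in the promoter window of Gngt1, which had no peak in either library, and of Gucy2f, which had a weak peak in 1 library. By state, 10 of the 19 matched members with a promoter peak in both libraries held it, and 1 of the 4 with none.

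Distal peaks assigned to the members by nearest protein-coding TSS numbered 140 in replicate 1 and 195 in replicate 2. The median per member was 3 and 4, where it was 2 in both libraries over all genes. Per 100 kb of genome nearest to the members there were 5.42 and 7.55 distal peaks, against 4.39 and 6.10 over all genes. Medians per gene were 0.5 and 3 for rod, 2 and 3 for cone, and 4 and 4.5 for shared members. Per 100 kb of nearest genome, rod members had 5.65 and 8.26, above all genes, and cone members had 3.26 and 5.02, below them. Shared members had 7.54 and 9.83 per 100 kb. Slc24a2 had most, 21 and 30, over the 547 kb nearest to it, which is near the genome average for that length. Abca4 had 13 and 16, Aipl1 12 and 16, Rgs9 11 and 16, Gucy2e 9 and 13 and Pde6a 8 and 12. No distal peak was assigned to 11 of the 35 members in replicate 1, or 31.4% against 31.9% of all genes, and to 7 of 35 in replicate 2, against 28.0% of all genes. Inside the member gene itself lay 64 and 99 of these peaks, and 51 and 75 were within 10 kb of a TSS of the gene, while 24 and 37 were over 50 kb away. The assignment by distance does not show which gene a site acts on.

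**Figure D5:**
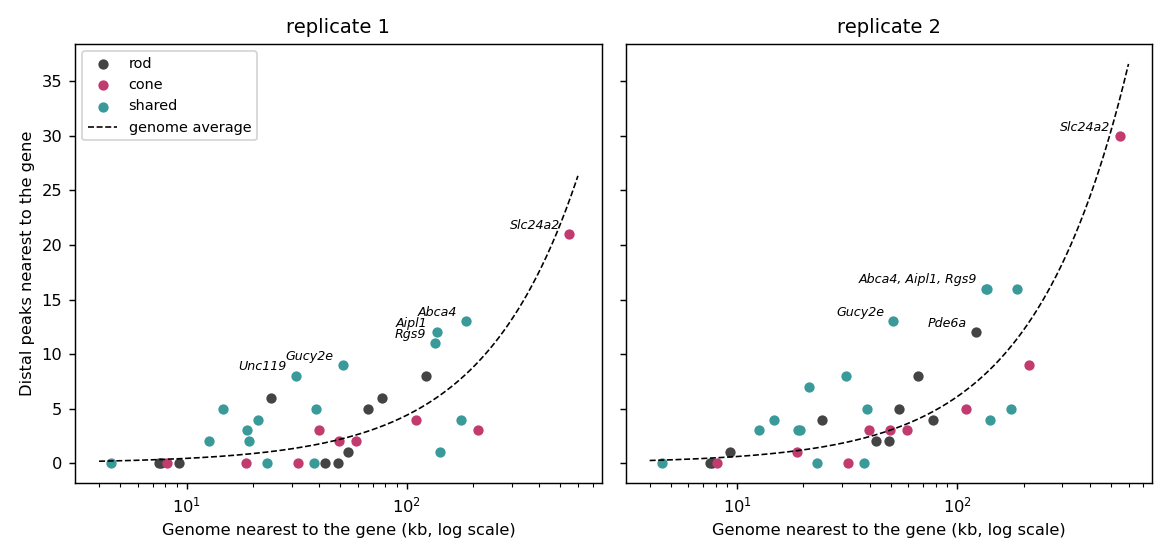
Number of distal peaks assigned to each member (vertical axis) against the length of genome for which it is the nearest protein-coding gene (kb, log scale), in replicate 1 (left) and replicate 2 (right). Points are genes by class, and the dashed curve is the genome average of 4.39 and 6.10 peaks per 100 kb. Slc24a2 lies near the curve, whereas Gucy2e, Abca4, Aipl1 and Rgs9 lie above it in both libraries.

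The strongest distal peak found in both libraries was the Cngb1 site printed above, with scores of 101 and 117 (ranks 93.8 and 94.0) at the same coordinates in both. It lies in an intron of Cngb1, 51554 bp downstream of the 5′ end, and so ranks far above any promoter peak of this gene. The Pde6a site came next, at ranks of 91.3 and 92.2. It lies in an intron of the neighbouring gene Ppargc1b, 39128 bp from the nearest Pde6a TSS. Gucy2e had a pair of sites, in a coding exon at ranks of 90.2 and 90.4 and in an intron at 88.9 and 96.6, 1325 and 1645 bp downstream of its 5′ end. The intergenic Prph2 site printed above, 6388 bp upstream of the 5′ end, had scores of 84 and 111 (ranks 89.6 and 92.2), where the Prph2 promoter peak had 17 and 28. Cngb3 had an intronic site 52241 bp downstream of its 5′ end at ranks of 89.2 and 93.4, above its promoter peak. Slc24a2 had an intergenic site 137854 bp upstream, at 89.2 and 90.8. Tulp1 had intergenic sites 21129 bp upstream at 88.9 and 90.4 and 3429 bp upstream at 91.1 and 88.7, and Gnb1 one 9810 bp upstream at 93.7 and 88.7. TAATCC was in none of these 10 sites at replicate 1 coordinates, and at replicate 2 coordinates it was in the Cngb3 site alone. An exact match to the CTCF core was in 4 at the coordinates of both libraries (Prph2, Slc24a2, the more distant Tulp1 site and Gnb1).

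Member distal peaks repeated between libraries for 80.7% of those of replicate 1 and 57.9% of those of replicate 2, against 71.2% and 49.9% over all distal peaks. Among the 113 found in both, 8 held TAATCC (7.08%, against 5.87%) and 31 held the CTCF core (27.4%, against 17.0%). By class, TAATCC was in 3 of 19 rod, 2 of 28 cone and 3 of 66 shared distal peaks. Over all distal peaks of a library, found in both or not, it was in 5.71% of member peaks against 5.79% of all in replicate 1, and in 10.3% against 6.39% in replicate 2. The share in member distal peaks was thus closer to its background than that in their promoter peaks.

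Other genes of the same pathway and cell compartment were set beside the members. In a list of 24 such genes, 17 had a promoter peak in both libraries and 10 had one at or above the median score, with median ranks of 60.5 and 68.7. The strongest were Reep6 at 99.1 and 99.8 and Rgs9bp, the anchor of Rgs9, at 95.8 and 98.7. Opn1mw, Rdh8, Rp1, Impg1 and Samd7 were among the genes with none in either library. The short-wavelength cone opsin Opn1sw, named here after its values were seen, ranked at 29.3 and 44.4. TAATCC was in a shared promoter peak of 2 of 16 genes of this list (12.5%), and in the RefSeq promoter window of 5 of the 14 that were matched (35.7%). Transcription factors of photoreceptor precursors had promoter peaks of higher median rank than the effector genes, although the ranks of single genes overlapped. Of 12 such factors, 11 had a promoter peak in both libraries, each at or above the median score, with median ranks of 91.6 and 92.8, and Nr2e3 had one in replicate 2 alone. The highest were Mef2d at 99.3 and 99.9, Rorb at 98.3 and 98.5 and Thrb at 96.3 and 96.4. Crx, the lowest of the 11, ranked at 63.98 and 79.41, where the members had medians of 64.4 and 70.1. Nrl ranked at 75.7 and 87.39, and Nr2e3 at 50.29 in replicate 2. Effector genes such as Gnb1, Gnat1, Rgs9 and Reep6 ranked above Crx, Nrl and Nr2e3 in both libraries. The factors had a median of 14.5 and 23.5 distal peaks, over a median of 192 kb of nearest genome, against 39.9 kb for members. Per 100 kb they had 6.14 and 8.64, against 5.42 and 7.55 for members. By CpG, 7 of the 12 factors were of the high class, against 4 of the 35 members, and its part was not tested. TAATCC was in a shared promoter peak of 3 of 11 factors (27.3%).

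Effector genes of 2 other retinal neuron classes were set beside the members. For bipolar cells, neurons born late that relay photoreceptor signals, 9 of 15 genes had a promoter peak in both libraries, and 9 of 15 at or above the median score, with median ranks of 84.1 in both. For ganglion cells, the output neurons and among the earliest born, it was 18 of 19 and 16 of 19, with medians of 88.0 and 89.8. The highest bipolar genes were Prkca at 96.1 and 95.4, Gnao1 at 98.1 and 94.0, and Trpm1 at 86.6 and 90.8, which is also a pigment epithelium marker and had the same lower rank as Scgn. The highest ganglion cell genes were Tubb3 at 94.8 and 96.4, Uchl1 at 94.6 and 95.9 and Gap43 at 93.8 and 93.4. Of the genes with a peak in both libraries, the lowest ganglion cell gene ranked at 12.4 and 25.4, and the lowest bipolar gene at 66.0 and 64.6. Whether the genes of these lists are particular to their cell class was not tested. Nyx, Cabp5, Pcp2 and Lrit3 among bipolar genes and Chrna6 among ganglion cell genes had no promoter peak in either library. Per gene with a shared promoter peak, TAATCC was in 0 of 9 bipolar and 1 of 17 ganglion cell genes, where it was in 11 of 22 members. In RefSeq promoter windows it was in 2 of 13 bipolar genes (15.4%) and 0 of 9 ganglion cell genes. Fewer members than ganglion cell genes had a promoter peak of at least median score, 40.0% against 84.2%, with bipolar genes between them at 60.0%. For any promoter peak in both libraries the shares were 68.6% for members, 94.7% for ganglion cell and 60.0% for bipolar genes. The lists differed in CpG, with 27 of 35 members, 8 of 19 ganglion cell and 7 of 15 bipolar genes in the low class. Within that class 63.0%, 87.5% and 42.9% had a promoter peak in both libraries. The part of CpG in these differences was not tested.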

How the data were processed

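DNase-seq was measured in 2 libraries of 1 group. Per the labels and the deposited file lists, the authors called peaks and hotspots in each library separately from filtered alignments to mm10. The aligner, caller and settings were not given in the sources used here, and the read depth is unknown. The deposited peak score (column 7) is a whole number whose definition is not given, so it was used only as a rank within each library (ties averaged). Hotspots carry a deposited −log10 of a false discovery rate, capped at 100.

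Repeated lines (34 and 56) were collapsed, and 232 and 166 peaks outside the nuclear chromosomes were left out. Promoter peaks overlapped by at least 1 bp a window of 1000 bp either side of any transcript start of GENCODE M21. Other peaks were distal, each assigned to 1 protein-coding gene by its nearest TSS. 6 motifs were searched on both strands as exact patterns, so near matches were not counted. The assignment was tested on simulated data. Python 3.11.15, pandas 2.3.3, numpy 2.4.6, pysam 0.24.0 and matplotlib 3.10.9 were used.

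All 35 members are accounted for. Described in full were, per class, the 3 members with the highest promoter rank in their lower library, those with a peak in 1 library or in none, and the 10 strongest distal peaks found in both libraries. Of other lists, the 3 highest genes and those without a peak are named, except for some genes that are not reported here. Members, classes and lists were chosen with earlier results of these data known. No test was possible with 1 group, and genes are not replicates. Alternatives were other windows, TSS sets, score thresholds, equal peak numbers, hotspots, and each library alone. Sequences and promoter windows are from RefSeq GRCm38.p6.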

Additional observations from a re-analysis of the deposited data

How the results depend on the processing

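The 24 members with a promoter peak in both libraries (6 rod, 5 cone, 13 shared) stayed within 1.5 times of that count with windows of 500 bp or 2 kb, protein-coding TSSs alone, the gene 5′ end alone, equal peak numbers, at least 75 bp of the peak inside the window, and hotspots, where the total ran from 19 to 25. The share of all genes under those settings ran from 64.3% to 71.1%, and the members were furthest below it with 500 bp, protein-coding TSSs alone and the 5′ end alone (57.1%, 57.1% and 54.3%). With peaks at or above the median score the counts were 14, 3 rod, 3 cone and 8 shared, and rod members also came to 3 with the gene 5′ end alone and with protein-coding TSSs alone. Taking 1 library gave 24 to 28 members, 6 to 7 rod, 5 to 7 cone and 13 to 14 shared. The mean of the libraries' median distal peaks per member, 3.5, was 3 to 4 in single libraries. It was 2 with a 2 kb window, 4.5 with the gene 5′ end alone and with protein-coding TSSs alone, 2 at or above the median score, 1 beyond 10 kb of any TSS, and 2.5 without peaks whose score is written in decimal form (12.1% and 7.8% of peaks). That last setting, the overlap of peaks between libraries, and the settings of TAATCC in promoter peaks were chosen after seeing the data. Each setting admits other peaks or TSSs by its construction. Read depth is unknown, so an unlisted peak is not shown to be absent, and the 4 members listed in replicate 2 alone were in the library with more peaks. With equal peak numbers, Slc24a1, Arr3 and Gucy2f were no longer among them. No paired analysis was possible because there is 1 group.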
